A study of Mus musculus with 9 samples.

Results

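The SLC25 carriers are the family of mitochondrial solute transporters. Here they are the 47 protein-coding mouse genes whose symbol begins with Slc25a and a number, out of 55416 gene identifiers in the deposited table and 21928 annotated as protein-coding. The rule used symbols and no measured value. Of the 47 genes, 39 passed the filter on low counts and were tested, among 13944 genes tested in all, and 8 did not. The pseudogene Slc25a5-ps and the relatives under other names (the uncoupling proteins Ucp1, Ucp2 and Ucp3, and Mtch1 and Mtch2) are outside the rule.

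RNA was sequenced from gastrocnemius, the large calf muscle, of mice in 3 groups with 3 libraries each. AET_MET mice ran on a treadmill for 60 minutes a day on 5 days a week over 8 weeks and drank water with 2 mg/mL metformin, an oral glucose-lowering drug. AET mice followed the same treadmill schedule with no metformin named, and SED mice were sedentary. The libraries are numbered within groups and are not said to come from separate mice, and the p-values therefore reflect differences among these libraries that may be technical. No group given metformin without training was analysed here, and the sources used here give no strain, sex or age. The names of the libraries also follow the groups, and any batch linked to those names cannot be told apart from them.

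SLC25 proteins sit almost all in the inner mitochondrial membrane and move nucleotides, phosphate, carboxylates, acylcarnitines, amino acids, cofactors and iron between cytosol and matrix. Most work as exchangers, each with its own substrates, so the family links the enzymes of the matrix to those of the cytosol. In skeletal muscle the best known members carry ATP out of the mitochondria in exchange for ADP, bring in the phosphate from which ATP is made, bring in fatty acids as acylcarnitines, and move reducing equivalents through the malate-aspartate shuttle.

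Libraries held 15434424 expected counts (AET_MET replicate 1) to 25355877 (AET replicate 3). On the second principal component of log2 CPM, which took 20.5% of the variance, AET_MET replicate 1 lay at 44.2, and the other 8 libraries between -17.6 and 11.7. Markers of fast fibers and of muscle identity, 10 genes in 1 list, were abundant in every library. Their sum was 139087 to 156374 CPM in AET_MET, 139875 to 157275 CPM in AET and 143000 to 161681 CPM in SED. Much of it was Myh4, with 65663 to 88558 CPM across libraries. Estimates were negative for 9 of the 10 in AET_MET against SED, 6 in AET_MET against AET and 5 in AET against SED. Myh2 averaged 1310 CPM in AET_MET, 2603 CPM in AET and 2333 CPM in SED, and was not called by edgeR. Slow fiber markers, also 10 genes, varied more, with sums of 133, 800 and 317 CPM in AET_MET, 467, 402 and 1377 CPM in AET and 903, 1112 and 954 CPM in SED. None of the slow fiber genes was called in any comparison by edgeR, with 1 at an unadjusted p under 0.05 in AET_MET against SED and 0 in the others, and DESeq2 called 0. Their estimates were negative for all 10 in AET_MET against both SED (median log2 change -1.23) and AET (median -0.81). Of all tested genes, 49.5% and 49.9% had negative estimates in these comparisons. Of the fast fiber and muscle identity genes edgeR called Acta1, a skeletal actin, lower in AET than in SED (log2 change -0.37, adjusted p = 0.0295). The 8 endothelial genes went both ways, with 5 positive and 3 negative estimates in AET against SED. In AET_MET, 2 were positive and 6 negative against SED, and likewise against AET. Of these genes edgeR called Cldn5, a tight junction protein, lower in AET against SED (-1.03, adjusted p = 0.000545) and in AET_MET against SED (-0.77, 0.00796). Kdr, a receptor for vascular endothelial growth factor, was higher in AET than in SED (1.03, edgeR adjusted p = 0.00206) and lower in AET_MET than in AET (-0.63, 0.0445). In whole muscle, fewer fibers or cells of a type and less RNA per cell cannot be told apart.

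The promoters of 3 genes are shown because these genes, Slc25a20, Slc25a30 and Slc25a28, are the only carriers called in a comparison that involves AET_MET. Each sequence holds 250 bases before and 50 bases after the annotated start, read 5′ to 3′ on the strand of the gene from RefSeq on build GRCm38.p6. Slc25a20 (carnitine-acylcarnitine carrier) lies at chr9:108661886-108662185 on the plus strand, Slc25a30 (an uncoupling protein relative) at chr14:75786988-75787287 on the minus strand and Slc25a28 (mitoferrin-2) at chr19:43674832-43675131 on the minus strand. Capitals mark a match to a nuclear receptor repeat (AGGTCA, any base, AGGTCA) in Slc25a20 and the CCAAT box in both others.
Slc25a20: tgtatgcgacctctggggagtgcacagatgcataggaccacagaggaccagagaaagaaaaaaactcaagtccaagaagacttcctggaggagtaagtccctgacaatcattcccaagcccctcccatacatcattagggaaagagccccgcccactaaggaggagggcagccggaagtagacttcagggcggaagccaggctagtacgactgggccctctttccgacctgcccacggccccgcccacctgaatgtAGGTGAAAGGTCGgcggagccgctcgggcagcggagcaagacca
Slc25a30: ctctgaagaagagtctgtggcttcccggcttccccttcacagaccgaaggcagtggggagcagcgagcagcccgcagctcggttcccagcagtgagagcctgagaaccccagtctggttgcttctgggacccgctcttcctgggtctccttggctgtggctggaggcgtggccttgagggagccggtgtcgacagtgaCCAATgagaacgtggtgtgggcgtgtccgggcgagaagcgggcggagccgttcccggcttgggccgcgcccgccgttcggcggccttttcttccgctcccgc
Slc25a28: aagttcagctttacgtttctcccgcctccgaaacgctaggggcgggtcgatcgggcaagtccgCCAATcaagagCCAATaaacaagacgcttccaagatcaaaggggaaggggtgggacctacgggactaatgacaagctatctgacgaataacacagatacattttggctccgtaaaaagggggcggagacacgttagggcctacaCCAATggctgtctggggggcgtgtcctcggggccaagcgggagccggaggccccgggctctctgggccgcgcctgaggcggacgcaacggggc

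The capitals in Slc25a20 begin at position 7 after the RefSeq start. In GENCODE M21, from which gene symbols were taken, the principal transcript starts earlier, at 108662098, so this position depends on the annotation. The capitals differ from the repeat of AGGTCA with any base between the units at 2 bases. That repeat, with up to 2 mismatches on either strand, is found in 3.81% of 27025 promoters of the same length and in 3 of the 30 tested carriers with a sequence (Slc25a20, Slc25a45 and Slc25a47). The motif was looked for with the Slc25a20 sequence in view. CCAAT, on either strand, is found in 37.9% of all promoters and in 16 of the 30 carriers, at -52 from the start in Slc25a30 and at -187, -176 and -43 in Slc25a28. TGTTTAC is found in 3.55% of promoters, TCAAGGTCA in 0.407%, the palindrome of GCGCA followed at once by TGCGC, with up to 1 mismatch, in 6.58% and CACGTG in 7.24%. The counts among the 30 carriers are 0, 0, 1 (Slc25a3) and 5 in the same order, and no overlap between motifs was looked for. A match describes letters only and does not show a bound factor.

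The family was dominated by a few genes in every group. Slc25a4, encoding the muscle and heart form of the ADP/ATP carrier, had a mean level over the 9 libraries of 1219 CPM per kb of its principal transcript (range 1048 to 1404 CPM per kb). It made up 68.6% ± 0.724 of the summed per-length level of the family in AET_MET, 70.2% ± 0.561 in AET and 68.8% ± 1.70 in SED (SD, n = 3 each). Slc25a3, the phosphate carrier, followed at 213 CPM per kb, with 168 to 241 CPM per kb across libraries. Next came Slc25a11, the oxoglutarate-malate carrier, at 80.3 CPM per kb (65.1 to 95.1), and Slc25a12, the muscle and brain aspartate-glutamate carrier, at 53.8 CPM per kb (48.1 to 59.5).

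Slc25a20 (31.1 CPM per kb, 24.7 to 41.3) and Slc25a5, the more widely expressed ADP/ATP carrier (20.1 CPM per kb, 13.7 to 23.5), came next. The ranges of neighbours in the order did not overlap among these 6 genes. Below them Slc25a51, the NAD carrier (12.8 CPM per kb), Slc25a28 (12.6), Slc25a39 (12.6) and Slc25a46 (12.4) had overlapping ranges, so their order is within the spread of the libraries. The first 8 genes together held 93.0% ± 0.201 of the per-length level in AET_MET, 93.4% ± 0.496 in AET and 93.4% ± 0.818 in SED. With all annotated exons in place of the principal transcript as the length, Slc25a3 was at 62.0 CPM per kb, below Slc25a11 at 64.8, and Slc25a28 was at 5.16.

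The 8 genes that were not tested had very few reads. Slc25a2, an ornithine carrier, had 47 expected counts in all 9 libraries together. Slc25a43 had 9, and Slc25a18 (a glutamate carrier), Slc25a21 (the oxodicarboxylate carrier) and Slc25a31 (the testis ADP/ATP carrier) had 6 each. The 6 counts of Slc25a21 were 3, 1 and 2 in SED, with 0 in the 6 libraries of AET_MET and AET. Slc25a48 had 2 counts. Slc25a41 and Slc25a54 had 0 counts of 196072185, which allows up to 0.0153 CPM.

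**Figure D1:**
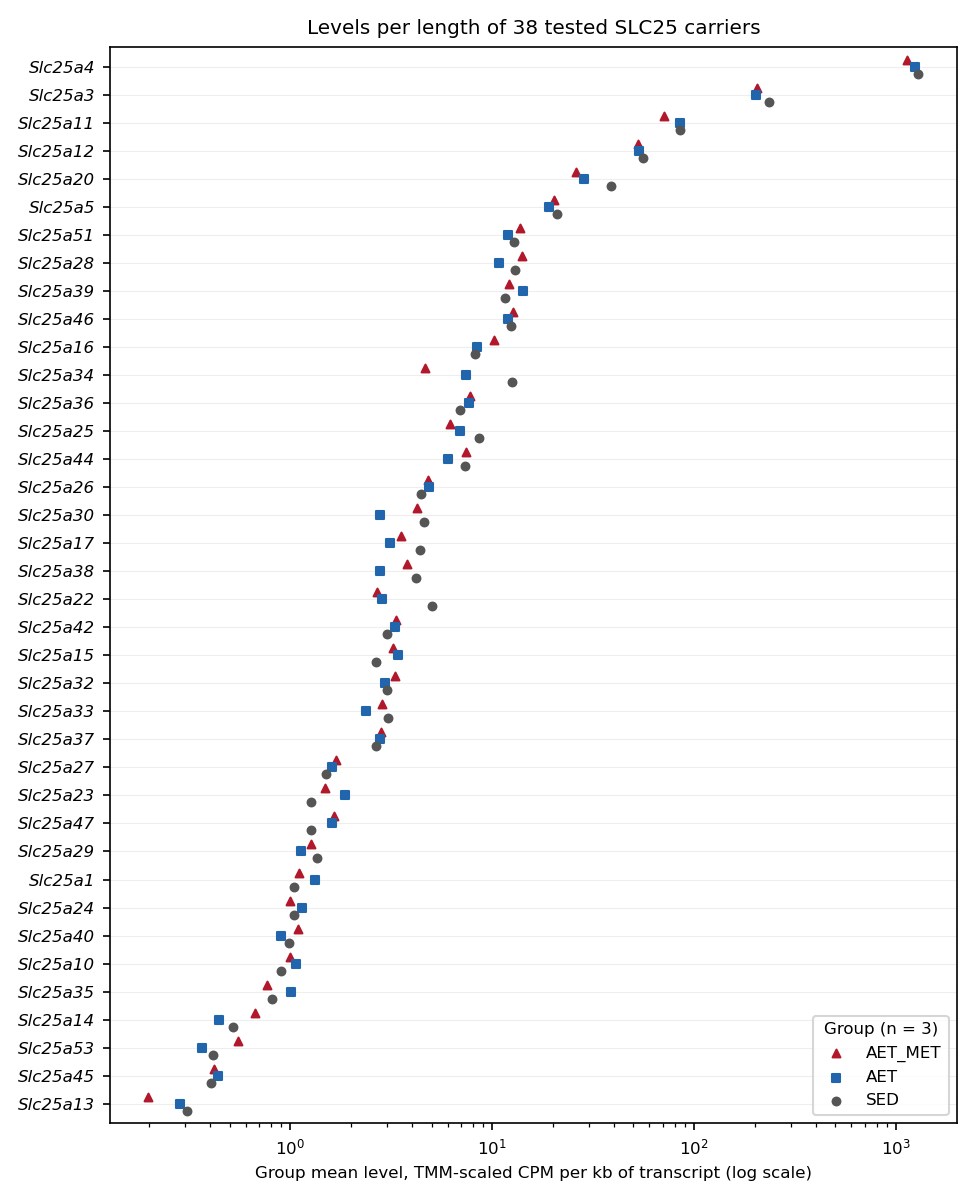
Mean level of 38 tested carriers in AET_MET, AET and SED (n = 3 each), as TMM-scaled CPM per kb of the principal transcript on a log axis. Levels run from 0.263 CPM per kb for Slc25a13 to 1219 CPM per kb for Slc25a4 as means over the 9 libraries.

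Few carriers were called in any comparison, at shares near those of all tested genes. In AET against SED, edgeR called 6 of the 39 tested carriers (15.4%), and 12.3% of all tested genes were called. Of the 6, 2 were higher in AET (5.82% of all genes were), among them Slc25a23, and 4 were lower (6.45% of all genes), namely Slc25a17, Slc25a20, Slc25a30 and Slc25a38. In AET_MET against SED, 1 carrier (2.56%), Slc25a20, was lower, beside 4.59% of all genes in either direction, 2.17% higher and 2.42% lower, and none was higher by edgeR. In AET_MET against AET, 2 carriers (5.13%), Slc25a28 and Slc25a30, were higher, beside 3.43% of all genes in either direction, 1.66% higher and 1.77% lower. Calling a gene took an adjusted p (Benjamini-Hochberg, over all tested genes) under 0.05. The split of calls over all genes moved with the scaling. In AET against SED, 812 genes were higher and 900 lower, and 980 and 711 with upper-quartile scaling. In AET_MET against SED, 303 were higher and 337 lower, and 684 and 176 with library sizes alone. For AET_MET against AET, 231 were higher and 247 lower, and 611 and 156 with library sizes alone.

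At an unadjusted p under 0.05 there were 11 carriers (28.2%, against 28.5% of all genes) in AET against SED. There were 8 (20.5%, against 20.6%) in AET_MET against SED and 8 (20.5%, against 21.4%) in AET_MET against AET. DESeq2 gave an adjusted p to 38, 38 and 31 carriers in these comparisons. It called 1 carrier higher and 4 lower in AET against SED (13.2% of those with an adjusted p, against 12.4% of all such genes), and 1 higher and 3 lower in AET_MET against SED (10.5%, against 6.78%). For AET_MET against AET it called 2 higher (6.45%, against 8.45%). The median log2 change of the carriers was -0.05, 0.05 and 0.02 in these comparisons, and that of all genes was 0.01, 0.00 and 0.00. The median size of the change was 0.24, 0.15 and 0.18 for the carriers and 0.21, 0.17 and 0.18 for all genes. Each pair of the 3 comparisons shares a group, so their values are not independent.

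**Figure D2:**
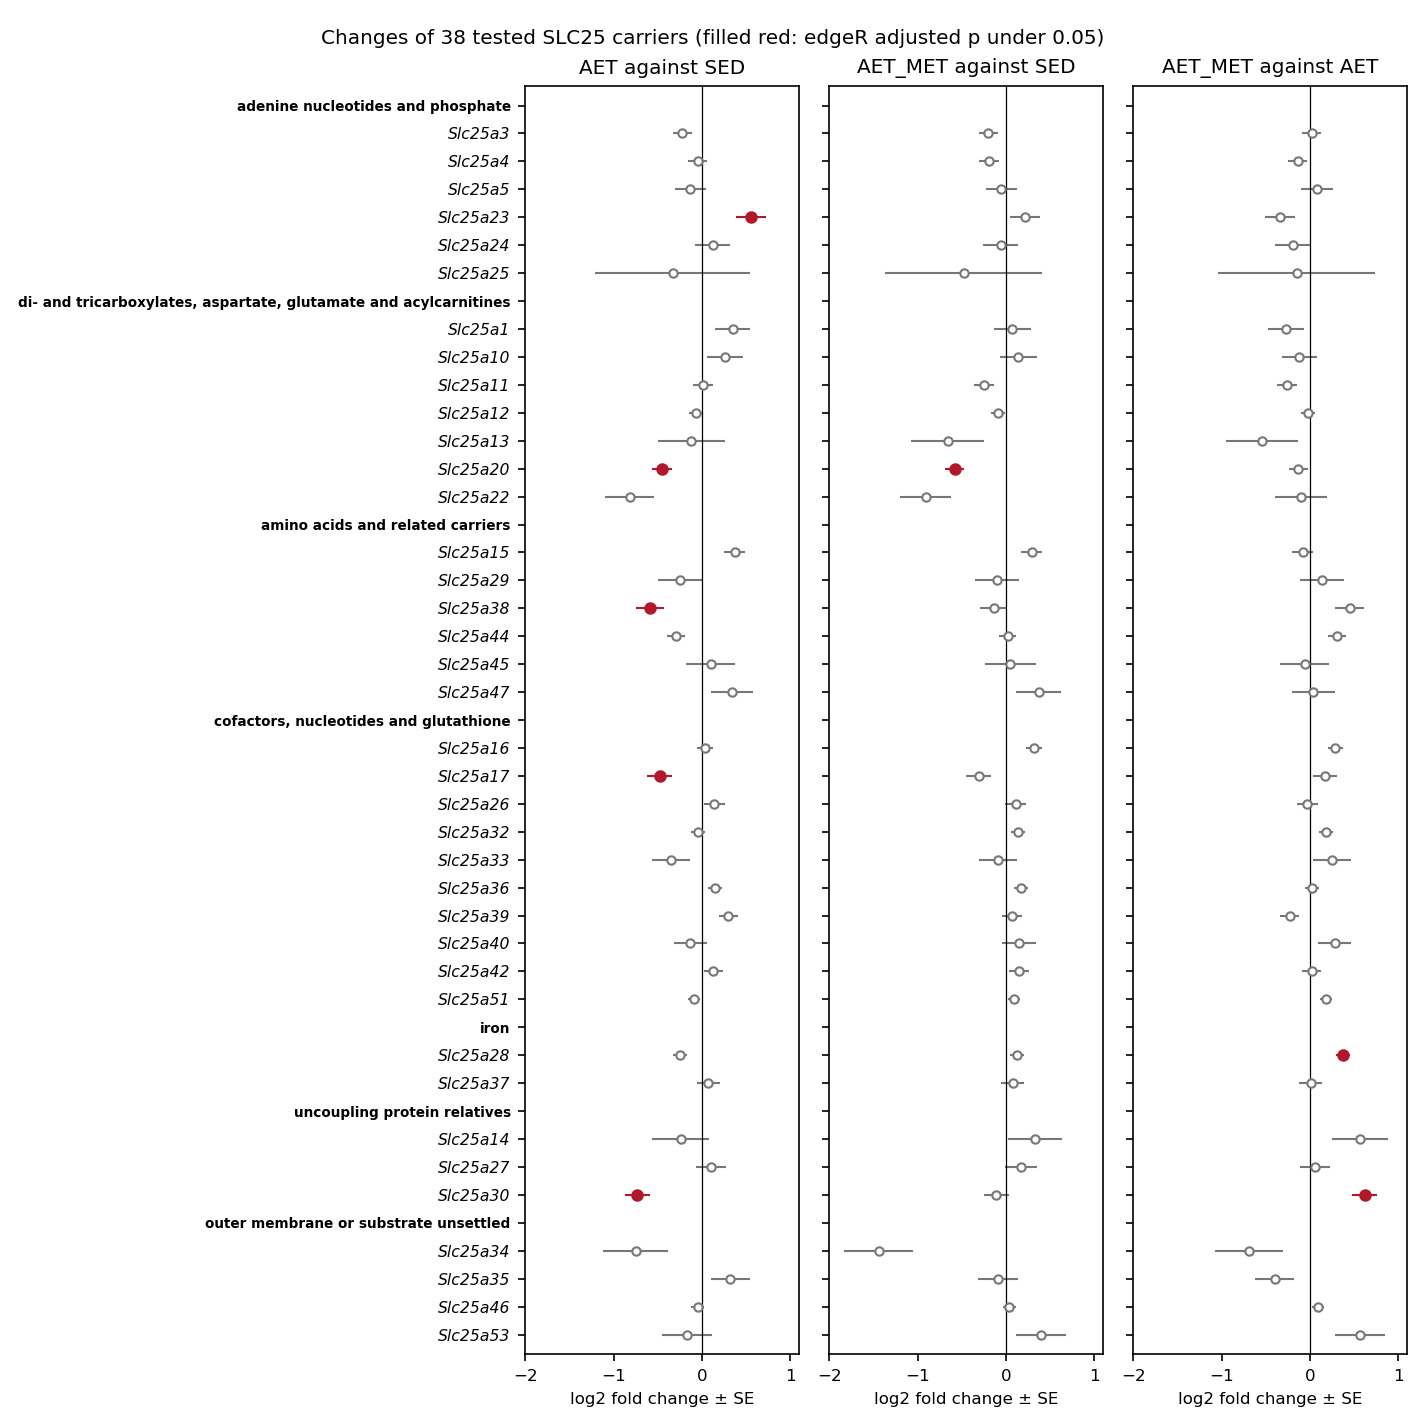
Log2 fold change ± SE of 38 tested carriers in AET against SED, AET_MET against SED and AET_MET against AET, grouped by role, with the called genes filled in red. Slc25a30 is filled in both comparisons that involve AET without metformin, and Slc25a20 is the one called lower than SED in both trained groups.

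The adenine nucleotide and phosphate carriers hold the most abundant transcripts of the family. Of 9 members 6 were tested, and 1 of them, Slc25a23, was called, in AET against SED. Slc25a4 (ENSMUSG00000031633, chromosome 8, 46206797 to 46211284, minus strand, GRCm38) had 2209, 2162 and 2140 CPM in AET_MET, 2018, 2446 and 2703 CPM in AET, and 2486, 2278 and 2679 CPM in SED. The AET libraries spanned the range of both other groups, while the 3 AET_MET libraries lay below the lowest SED library. Its log2 change came to -0.05 in AET against SED, with a 95% interval of -0.28 to 0.18. It was -0.19 (-0.42 to 0.04) in AET_MET against SED and -0.14 (-0.37 to 0.09) in AET_MET against AET. None of these passed the test.

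Slc25a5 had log2 changes of -0.13 in AET against SED, -0.05 in AET_MET against SED and 0.08 for AET_MET against AET, none called. Slc25a3 had -0.22, -0.20 and 0.02 in the same order, also none called. Its libraries held 337, 347 and 302 CPM in AET_MET, 270, 335 and 369 CPM in AET, and 372, 374 and 388 CPM in SED, so every library of either trained group was below the lowest SED library. The adjusted p from edgeR was 0.305 in AET_MET and 0.195 in AET, each against SED.

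Slc25a23, Slc25a24 and Slc25a25 encode the calcium-regulated ATP-Mg/phosphate carriers, which set the adenine nucleotide content of the matrix. Slc25a23 (ENSMUSG00000046329, chromosome 17, 57043711 to 57059863, minus strand) had 5.61, 4.86 and 4.44 CPM in AET_MET, 6.68, 6.17 and 6.00 CPM in AET, and 3.59, 3.74 and 5.42 CPM in SED. All AET libraries were above all SED libraries, and the AET_MET libraries overlapped those of SED. The log2 change in AET against SED was 0.56 ± 0.17 (SE; edgeR adjusted p = 0.0435). It was 0.22 ± 0.17 in AET_MET against SED (edgeR adjusted p = 0.507) and -0.34 ± 0.17 for AET_MET against AET (0.256). The AET call was lost in edgeR without SED replicate 1 (adjusted p = 0.136), SED replicate 2 (0.148), AET replicate 1 (0.124), AET replicate 2 (0.0874), AET replicate 3 (0.0902), AET_MET replicate 2 (0.0591) or AET_MET replicate 3 (0.0537). With only AET and SED in the fit it was 0.0559, and DESeq2 gave 0.0682. An antisense gene, Gm17168, overlaps its exons.

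Slc25a24 had a log2 change of 0.12 in AET against SED, -0.06 in AET_MET against SED and -0.19 for AET_MET against AET. Slc25a25 had 13.6, 15.8 and 31.7 CPM in AET_MET, 14.7, 38.4 and 14.9 CPM in AET, and 10.3, 64.8 and 10.1 CPM in SED. In each group 1 library stood above the other 2, and the highest SED library was 6.41 times the lowest, the widest spread within a group of any tested carrier. Its log2 changes of -0.33, -0.48 and -0.15 in the 3 comparisons had 95% intervals of -2.46 to 1.81, -2.64 to 1.69 and -2.32 to 2.02.

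The carriers of carboxylates, aspartate, glutamate and acylcarnitines feed the citric acid cycle, the malate-aspartate shuttle and fatty acid oxidation. Of 9 members 7 were tested, and Slc25a20 was the 1 called. Slc25a20 (ENSMUSG00000032602, chromosome 9, 108662088 to 108684641, plus strand) exchanges acylcarnitines for free carnitine and so brings long-chain fatty acids to the matrix. It had 44.2, 50.3 and 44.5 CPM in AET_MET, 44.0, 47.0 and 60.9 CPM in AET, and 63.1, 70.9 and 73.6 CPM in SED. All 6 libraries of the trained groups were below all 3 SED libraries, and the trained groups overlapped each other.

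Slc25a20 averaged 46.4 ± 3.45 CPM in AET_MET, 50.6 ± 9.02 CPM in AET and 69.2 ± 5.46 CPM in SED (SD, n = 3 each). Its log2 change was -0.58 ± 0.11 in AET_MET against SED (edgeR adjusted p = 0.0159) and -0.45 ± 0.11 in AET against SED (edgeR adjusted p = 0.0239). AET_MET against AET gave -0.13 ± 0.11 (95% interval -0.38 to 0.12). In edgeR the AET_MET call was lost without SED replicate 2 (adjusted p = 0.0691), SED replicate 3 (0.0683), AET_MET replicate 1 (0.0736) or AET_MET replicate 3 (0.0894). The AET call was lost without SED replicate 2 (0.0835), SED replicate 3 (0.0829), AET replicate 1 (0.0781) or AET replicate 2 (0.0858). The estimates without each of these libraries stayed below 0. The summed slow fiber level was also lower in all AET_MET libraries and in 2 of the 3 AET libraries than in the lowest SED library, and its part in the result was not tested.

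The other members of the group were not called in edgeR. Slc25a22, a glutamate carrier, had 8.14, 9.40 and 4.94 CPM in AET_MET, 5.68, 8.47 and 9.69 CPM in AET, and 11.5, 12.7 and 18.1 CPM in SED. Every trained library was below every SED library. On the log2 scale the change was -0.91 ± 0.29 in AET_MET against SED (edgeR adjusted p = 0.121) and -0.82 ± 0.28 in AET against SED (0.099). DESeq2 gave 0.0159 and 0.0218.

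Slc25a11, which with the aspartate-glutamate carriers runs the malate-aspartate shuttle, had 128, 126 and 111 CPM in AET_MET, 118, 157 and 163 CPM in AET, and 141, 138 and 155 CPM in SED. The AET_MET libraries were below all SED libraries and overlapped the lowest AET library. Its log2 change was -0.25 ± 0.11 in AET_MET against SED (edgeR adjusted p = 0.233), 0.01 ± 0.11 in AET against SED (0.952) and -0.26 ± 0.11 in AET_MET against AET (0.204). Slc25a12 differed by at most 0.09 in size on the log2 scale in any comparison. Its paralog Slc25a13, the liver form of the aspartate-glutamate carrier, was the lowest of the tested carriers at 0.263 CPM per kb. It had log2 changes of -0.12 in AET against SED, -0.66 in AET_MET against SED and -0.54 for AET_MET against AET, with standard errors of 0.38 to 0.41.

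Slc25a1, the citrate carrier, and Slc25a10, the dicarboxylate carrier, had log2 changes of 0.35 and 0.26 in AET against SED, neither called. In AET_MET against AET all 7 tested members of this group had negative estimates, from -0.54 to -0.02 with a median of -0.13. Of all tested genes, 49.9% had negative estimates there. The 7 were measured in the same libraries, so their directions are not independent. None of the 7 was called there by edgeR or DESeq2, and 1 (Slc25a11) had an unadjusted p under 0.05.

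**Figure D3:**
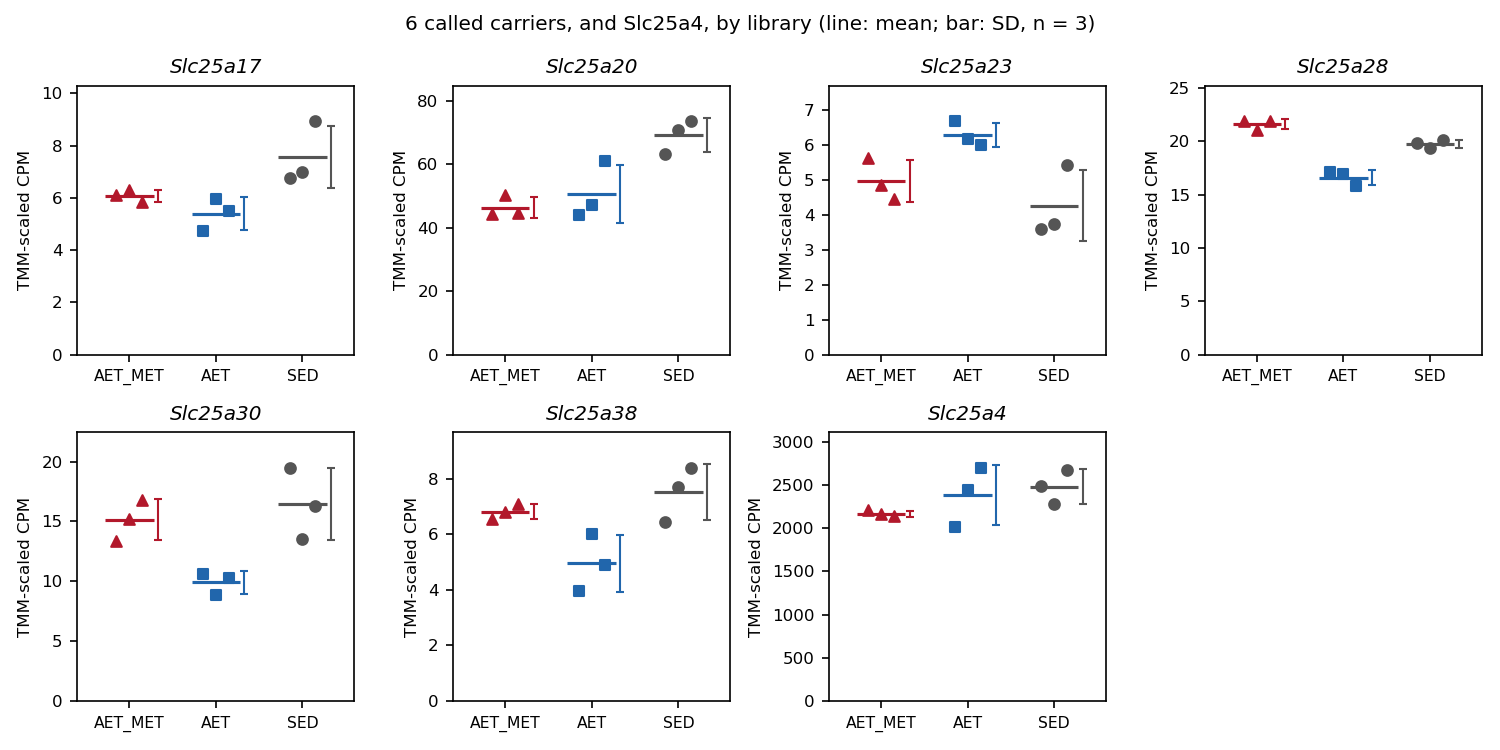
TMM-scaled CPM in each library of AET_MET, AET and SED for 6 carriers called in at least 1 comparison and for Slc25a4, with the mean as a line and the SD as a bar (n = 3). Slc25a20 is lower in all 6 trained libraries than in SED, and Slc25a30 is lower in AET (8.82 to 10.6 CPM) than in both other groups.

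Of the 8 carriers of amino acids and their relatives, 6 were tested and 1 was called. Slc25a38 (ENSMUSG00000032519, chromosome 9, 120110374 to 120124504, plus strand) brings in the glycine from which heme synthesis starts. It had 6.54, 6.81 and 7.09 CPM in AET_MET, 3.96, 6.01 and 4.91 CPM in AET, and 6.43, 7.71 and 8.40 CPM in SED. The AET libraries were below all libraries of both other groups, and AET_MET and SED overlapped. The fitted log2 change was -0.59 ± 0.16 in AET against SED (edgeR adjusted p = 0.0272), -0.14 ± 0.15 in AET_MET against SED (0.663) and 0.45 ± 0.16 for AET_MET against AET (0.119). The AET call was lost in edgeR without SED replicate 2 (adjusted p = 0.0809), SED replicate 3 (0.0933), AET replicate 1 (0.093) or AET replicate 3 (0.0837). Erythroid markers, whose cells also make heme, had sums of 144 to 211 CPM in AET_MET, 194 to 222 CPM in AET and 193 to 366 CPM in SED. None of the 6 tested erythroid genes was called by edgeR in any comparison, with 2 at an unadjusted p under 0.05 in AET_MET against SED. DESeq2 called 1 lower there. Their part in the result was not tested.

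Slc25a15, the ornithine carrier of the urea cycle, had 12.5, 9.31 and 11.5 CPM in AET_MET, 11.3, 11.5 and 12.3 CPM in AET, and 9.64, 7.97 and 9.53 CPM in SED. All AET libraries were above all SED libraries, with a log2 change of 0.37 ± 0.12 (edgeR adjusted p = 0.0639). AET_MET against SED gave 0.29 ± 0.12 (0.201). Slc25a44, which carries branched-chain amino acids in brown fat and muscle, had 24.9, 25.8 and 27.5 CPM in AET_MET, 21, 22.8 and 19.3 CPM in AET, and 22.0, 27.7 and 27.5 CPM in SED. Its AET libraries lay below all AET_MET libraries and overlapped those of SED. The log2 change was -0.29 ± 0.10 in AET against SED (edgeR adjusted p = 0.0791) and 0.31 ± 0.10 in AET_MET against AET (0.103). Slc25a29, which carries basic amino acids, and Slc25a45 and Slc25a47 had log2 changes between -0.25 and 0.37 in the 3 comparisons, none called.

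The carriers of cofactors, nucleotides and glutathione were all tested, 11 of 11. Slc25a17 (ENSMUSG00000022404, chromosome 15, 81318911 to 81360812, minus strand) is a carrier of coenzyme A and other nucleotide cofactors in the membrane of peroxisomes rather than mitochondria. It had 6.11, 6.30 and 5.84 CPM in AET_MET, 4.73, 5.97 and 5.48 CPM in AET, and 6.76, 7.0 and 8.94 CPM in SED. All trained libraries were below all SED libraries. On the log2 scale the change was -0.48 ± 0.14 in AET against SED (edgeR adjusted p = 0.0395) and -0.31 ± 0.14 in AET_MET against SED (0.225). In edgeR the AET call was lost without SED replicate 2 (adjusted p = 0.0633), SED replicate 3 (0.141), AET replicate 1 (0.126), AET replicate 3 (0.0969), AET_MET replicate 1 (0.0506), AET_MET replicate 2 (0.0532) or AET_MET replicate 3 (0.0536). With only AET and SED in the fit it was 0.0624, and DESeq2 gave 0.0566.

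Slc25a16, linked to coenzyme A in the matrix, had 33.2, 29.8 and 33.2 CPM in AET_MET, 27.3, 25.8 and 25.8 CPM in AET, and 24.7, 24.0 and 28.6 CPM in SED. All AET_MET libraries were above all others. The fitted log2 change was 0.32 ± 0.09 in AET_MET against SED (edgeR adjusted p = 0.0568) and 0.29 ± 0.09 for AET_MET against AET (0.0801), so neither passed. For AET_MET against SED, DESeq2 gave 0.0496, edgeR without SED replicate 3 gave 0.0403, edgeR with a minimum of 5 CPM in 3 libraries gave 0.039, and the call also passed under 2 other scalings. Its log2 change in AET against SED was 0.03 ± 0.09. Slc25a42, the other coenzyme A carrier of the group, had log2 changes of 0.13, 0.15 and 0.02 in AET against SED, AET_MET against SED and AET_MET against AET.

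Slc25a39, which brings glutathione into mitochondria, had 22.3, 19.0 and 19.8 CPM in AET_MET, 19.9, 25.9 and 25.8 CPM in AET, and 19.0, 19.0 and 20.2 CPM in SED. The groups overlapped, and the log2 change in AET against SED was 0.30 ± 0.11 (edgeR adjusted p = 0.0875). Without AET replicate 1, its lowest AET library, edgeR gave 0.0218. Its paralog Slc25a40 had log2 changes of -0.13 in AET against SED, 0.15 in AET_MET against SED and 0.28 for AET_MET against AET.

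The pyrimidine nucleotide carriers Slc25a33 and Slc25a36 were at 2.76 and 7.46 CPM per kb. Slc25a33 had log2 changes of -0.35, -0.09 and 0.25 in AET against SED, AET_MET against SED and AET_MET against AET, and Slc25a36 had 0.15, 0.17 and 0.02. Slc25a51, the NAD carrier, had 63.1, 58.7 and 60.2 CPM in AET_MET, 50.3, 52.6 and 57.2 CPM in AET, and 58.3, 56.8 and 55.7 CPM in SED. Its AET_MET libraries were above all others, with a log2 change of 0.18 ± 0.07 against AET (edgeR adjusted p = 0.156). Slc25a26, the S-adenosylmethionine carrier, and Slc25a32, a flavin and folate carrier, had log2 changes between -0.04 and 0.18.

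The mitoferrins Slc25a28 and Slc25a37 bring iron into the matrix for heme and iron-sulfur clusters, and Slc25a37 is the form best known from red cell precursors. Slc25a28 (ENSMUSG00000040414, chromosome 19, 43663801 to 43674881, minus strand) had 21.9, 21.1 and 21.9 CPM in AET_MET, 17.1, 16.9 and 15.8 CPM in AET, and 19.8, 19.4 and 20.1 CPM in SED. The 3 groups did not overlap, with AET lowest and AET_MET highest. The log2 change in AET_MET against AET was 0.38 ± 0.08 (edgeR adjusted p = 0.0246). It was -0.25 ± 0.08 in AET against SED (edgeR adjusted p = 0.0518) and 0.13 ± 0.08 in AET_MET against SED (0.358). The call was lost in edgeR without AET replicate 1 (adjusted p = 0.0551), AET replicate 3 (0.104), AET_MET replicate 1 (0.0731), AET_MET replicate 2 (0.065) or AET_MET replicate 3 (0.109), with estimates of 0.35 to 0.40 over all 9 fits that left out 1 library.

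Slc25a37 had 10.4, 11.6 and 13.2 CPM in AET_MET, 12.8, 12.4 and 9.65 CPM in AET, and 11.9, 11.2 and 10.1 CPM in SED. The groups overlapped throughout, and the log2 change in AET_MET against AET was 0.01 (95% interval -0.26 to 0.29). Whether the mitoferrins differed from each other in this change was not tested. Antisense genes, Gm27223 and Gm31748, overlap exons of Slc25a37.

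The uncoupling protein relatives Slc25a14, Slc25a27 and Slc25a30 were all tested. Slc25a30 (ENSMUSG00000022003, chromosome 14, 75760117 to 75787037, minus strand), first described as a kidney mitochondrial carrier, had 13.4, 15.2 and 16.8 CPM in AET_MET, 10.6, 8.82 and 10.3 CPM in AET, and 19.5, 13.5 and 16.3 CPM in SED. The AET libraries were below all libraries of the other groups, and AET_MET overlapped SED. The means were 15.2 ± 1.67 CPM in AET_MET, 9.92 ± 0.968 CPM in AET and 16.4 ± 3.02 CPM in SED (SD, n = 3 each).

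Slc25a30 was the 1 carrier called both in AET against SED and in AET_MET against AET, which share the AET libraries. Its log2 change was -0.73 ± 0.14 in AET against SED (edgeR adjusted p = 0.00535) and 0.62 ± 0.14 in AET_MET against AET (edgeR adjusted p = 0.0323). AET_MET against SED gave -0.11 ± 0.14 (95% interval -0.41 to 0.18). The call in AET against SED held in all 9 fits that left out 1 library. The call in AET_MET against AET was lost in edgeR without AET replicate 1 (adjusted p = 0.0668), AET replicate 2 (0.0907), AET replicate 3 (0.105), AET_MET replicate 1 (0.0609), AET_MET replicate 2 (0.0924) or AET_MET replicate 3 (0.152). Slc25a14 had log2 changes of -0.24 ± 0.32, 0.33 ± 0.31 and 0.57 ± 0.32 in AET against SED, AET_MET against SED and AET_MET against AET, and Slc25a27 had 0.10, 0.17 and 0.06, none called.

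The members of the outer membrane or without a settled substrate included the largest estimate of the family. Slc25a34, a carrier with no settled substrate, had 14.1, 15.4 and 7.63 CPM in AET_MET, 14.3, 16.5 and 28.8 CPM in AET, and 23.8, 36.1 and 40.5 CPM in SED. All AET_MET libraries were below all SED libraries, and AET overlapped both groups. The log2 change was -1.44 ± 0.39 in AET_MET against SED (edgeR adjusted p = 0.0957), -0.75 ± 0.37 in AET against SED (0.241) and -0.69 ± 0.39 in AET_MET against AET (0.354). DESeq2 gave 0.00627 for AET_MET against SED. The summed slow fiber level was also lower in all AET_MET libraries than in the lowest SED library. Its part in the result was not tested.

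Slc25a46, an outer membrane member linked to mitochondrial shape, had log2 changes between -0.05 and 0.09 with 95% intervals within -0.21 and 0.25. Slc25a53 had log2 changes of -0.17, 0.40 and 0.57 in AET against SED, AET_MET against SED and AET_MET against AET, and Slc25a35 had 0.32, -0.09 and -0.40. None of the 4 tested members of this group was called by edgeR in any comparison. At an unadjusted p under 0.05 there was 1, in AET_MET against SED, and DESeq2 called 1 lower there.

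**Figure D4:**
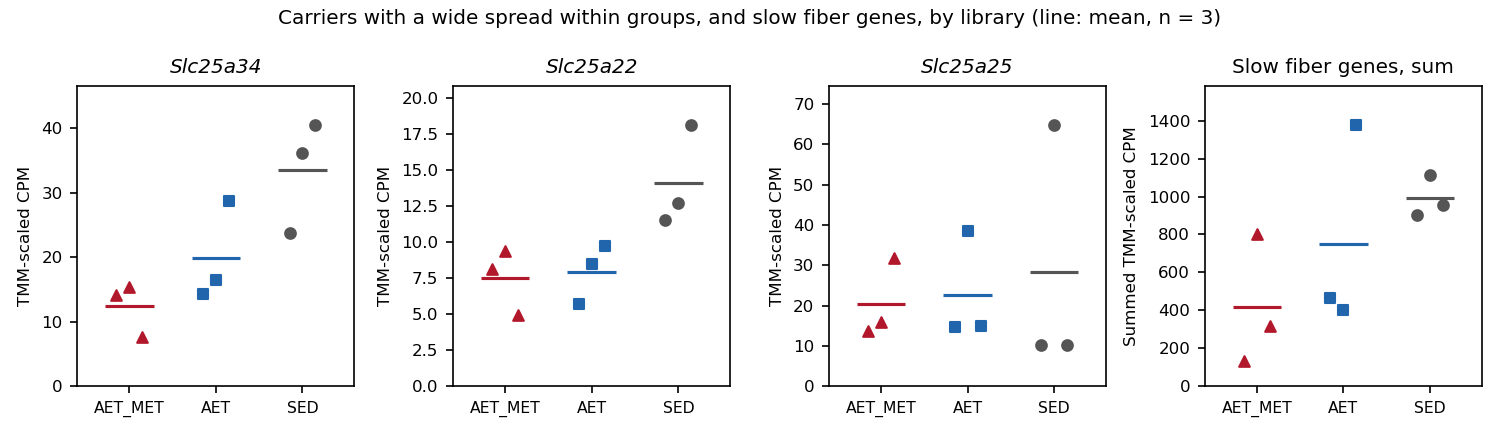
TMM-scaled CPM in each library of AET_MET, AET and SED for Slc25a34, Slc25a22 and Slc25a25, with the mean as a line (n = 3), beside the summed CPM of 10 slow fiber genes. Slc25a25 has 1 high library in each group, with 64.8 CPM in SED replicate 2, and the slow fiber sum runs from 133 to 1377 CPM.

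Some carriers lie next to each other in the genome. Slc25a29 and Slc25a47 lie on opposite strands of chromosome 12 with 162 bases between the outer bounds of the annotated genes. The principal transcript of Slc25a47 starts further away, at 108851129, and that of Slc25a29 at 108835883. The log2 changes of Slc25a29 and Slc25a47 in AET against SED were -0.25 and 0.34, neither called. Slc25a41 lies 2056 bases from Slc25a23 on chromosome 17 and had no count, while Slc25a23 was called higher in AET. On chromosome 3, Slc25a54 had no count and lies 6461 bases from Slc25a24. Without a stated strand setting, reads of carriers whose exons overlap an antisense gene cannot be told apart from that gene, which among the tested carriers also concerns Slc25a10, Slc25a11, Slc25a25, Slc25a26, Slc25a33, Slc25a35 and Slc25a46. RSEM shares reads between similar sequences, so the split between Slc25a4 and Slc25a5 is also an estimate.

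Genes related to the carriers by family or function were read from 4 further lists. Unlike the carriers, their calls were not followed with 1 library left out or under other scalings and filters. Of the superfamily members under other names, 4 of 5 were tested. Ucp3, the muscle uncoupling protein, had 187, 186 and 135 CPM in AET_MET, 129, 150 and 186 CPM in AET, and 308, 366 and 442 CPM in SED. All trained libraries were below all SED libraries. Its log2 change was -1.14 ± 0.18 in AET_MET against SED (edgeR adjusted p = 0.012) and -1.26 ± 0.18 in AET against SED (edgeR adjusted p = 0.00321). Ucp2 fell by 0.52 on the log2 scale in AET against SED (edgeR adjusted p = 0.0412) and had -0.41 in AET_MET against SED (0.148). Mtch1 and Mtch2 were not called by edgeR, and Ucp1 had no count. In AET against SED DESeq2 called 1 gene of this list lower, where edgeR called 2. In AET_MET against SED each called 1 lower. Of all tested genes edgeR called 6.45% lower in AET against SED and 2.42% lower in AET_MET against SED. DESeq2 called 12.4% and 6.78% of all genes with an adjusted p, in either direction.

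The machinery that inserts carriers into the inner membrane was represented by 10 genes, all tested. None was called by edgeR or DESeq2 in any comparison, and 1 had an unadjusted p under 0.05 in each. Of all genes, 28.5%, 20.6% and 21.4% had such a p in AET against SED, AET_MET against SED and AET_MET against AET. The median log2 changes of the 10 genes were -0.10 in AET against SED, -0.07 in AET_MET against SED, with 0.03 in AET_MET against AET. Of 18 other transport genes of the mitochondrial membranes, edgeR called 1, the ATP-binding cassette transporter Abcb8. It was lower in AET than in SED, by a log2 change of -0.35 (edgeR adjusted p = 0.0288). Of all tested genes edgeR called 6.45% lower in that comparison. DESeq2 called 3 of the 18 lower in AET against SED, and 1 higher and 1 lower in AET_MET against AET. Its shares over all genes with an adjusted p were 12.4% and 8.45%, in either direction.

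Of 21 enzymes that make or use carrier substrates, 20 were tested, and their median log2 changes were -0.15 in AET against SED, -0.27 in AET_MET against SED and -0.13 for AET_MET against AET. In this order 35.0%, 70.0% and 40.0% had an unadjusted p under 0.05, against 28.5%, 20.6% and 21.4% of all genes. EdgeR called 2 lower, 3 lower and 1 higher in the same order, beside 6.45% lower, 2.42% lower and 1.66% higher of all genes. DESeq2 called 2 lower, 7 lower, and in AET_MET against AET 1 higher and 3 lower. Its shares over all genes with an adjusted p were 12.4%, 6.78% and 8.45%, in either direction. Cpt2, the carnitine palmitoyltransferase that takes the acyl group from the acylcarnitine brought in by Slc25a20, had 35.7, 35.4 and 30.3 CPM in AET_MET, 36.5, 36.0 and 48.8 CPM in AET, and 47.9, 50.1 and 46.8 CPM in SED. Its AET_MET libraries were below all SED libraries, and the log2 change was -0.52 ± 0.11 (edgeR adjusted p = 0.0254). In AET against SED it was -0.26 ± 0.11 (edgeR adjusted p = 0.155). Oat, ornithine aminotransferase, was lower in AET_MET (log2 change -0.33, edgeR adjusted p = 0.0397) and in AET (-0.55, 0.00129), each against SED. Bcat2, the mitochondrial branched-chain aminotransferase, was lower in AET_MET than in SED by a log2 change of -0.43 (edgeR adjusted p = 0.0398). The glycerol phosphate shuttle enzymes were called in different comparisons: Gpd1 was lower in AET than in SED (-0.32, edgeR adjusted p = 0.0456), and Gpd2 was higher in AET_MET than in AET (0.43, edgeR adjusted p = 0.0236).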

How the data were processed

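Total RNA of gastrocnemius was made into libraries with a SMARTER mRNA-Seq kit, per the labels' protocols. The authors deposited 1 table of expected counts per gene, as RSEM estimates them, in 9 library columns. STAR 2.5.3a, RSEM 1.3.0, edgeR 3.34.0 and GRCm38 are named per the submitters' processing notes. The sources used here do not give the annotation release, the strand setting or any filter, so reads of antisense or near-identical genes cannot be told apart.

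Symbols came from GENCODE M21. Values were rounded to whole numbers and fitted with edgeR 4.0.16 in R 4.3.3 (TMM scaling, filterByExpr, robust quasi-likelihood test), with all 3 groups in 1 model with 6 residual degrees of freedom and no covariate. CPM are TMM-scaled, and levels per length divide them by the length of the principal transcript. The scripts were tested on simulated counts. Alternatives were other scalings and filters, DESeq2 1.42.0, a replicate block, the 2 compared groups alone and each library left out. Calls of genes in the other lists were not followed through these, apart from counts by DESeq2. The length over all exons was added after seeing the data. Replicates differed beyond counting noise (chi-square over its degrees of freedom 14.7 to 44.4) and were kept apart. Members and lists were chosen with earlier results of these data known. Named carriers are those called, those with an unadjusted p under 0.05, the 8 highest per length and the paralogs, with the rest in ranges; of the other lists, called genes are named. Letters and coordinates of promoters are from RefSeq. Some results are not reported here.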

Additional observations from a re-analysis of the deposited data

How the results depend on the processing

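Carriers called by edgeR numbered 6 in AET against SED, and 2 (without SED replicate 2) to 6 when 1 library was left out, with 3 each without SED replicate 3, AET replicate 1 or AET replicate 3. AET_MET had 1 called carrier against SED and 2 against AET, with ranges of 0 to 1 and 0 to 2. In AET_MET against SED the count was 2 with upper-quartile scaling, 2 with library sizes alone, 2 with a minimum of 5 CPM in 3 libraries, and 4 with DESeq2. The calls in AET against SED were 3 higher and 3 lower with upper-quartile scaling and 2 and 2 with library sizes alone. With only the 2 groups compared in the fit, 1 was higher and 3 were lower there, and the calls of Slc25a17 (edgeR adjusted p = 0.0624) and Slc25a23 (0.0559) ended. Over all genes, 1712, 640 and 478 were called in AET against SED, AET_MET against SED and AET_MET against AET, and leaving out 1 library gave 934 to 1509, 141 to 655 and 23 to 461. With library sizes alone, 684 genes were higher and 176 lower in AET_MET against SED. The count for AET_MET against AET was 767 with library sizes alone (611 higher, 156 lower), 731 with no filter on low counts and 888 with DESeq2. Library sizes alone moved the median log2 change of all genes by 0.10 in AET_MET against SED. In AET against SED, library sizes alone ended the calls of Slc25a17 (edgeR adjusted p = 0.0682) and Slc25a38 (0.0511), and upper-quartile scaling that of Slc25a17 (0.051). In AET_MET against SED, Slc25a16 was called higher with library sizes alone (0.0146), upper-quartile scaling (0.038) and a minimum of 5 CPM in 3 libraries (0.039). Causes were not tested. For single carriers, 1012 results kept their side of the threshold when 1 library was left out, 4 gained and 37 lost the call. Under the other settings these numbers were 871, 11 and 8, and none turned its direction with a call. Results called in neither fit count as kept even where the sign of the estimate changed. For example, Slc25a4 in AET against SED went from -0.05 to 0.05 without AET replicate 1. Correlations of deviations between libraries of different groups were -0.051 to 0.184 for the same replicate number and -0.172 to 0.14 for different numbers. With 3 libraries per group, these ranges cannot exclude a pairing by number. A replicate block gave 6, 1 and 2 carriers, with Slc25a23 no longer called in AET against SED (edgeR adjusted p = 0.0612) and Slc25a15 called (0.0485).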
